A study of Mus musculus with 2 samples.

Results

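Sialyltransferases are the Golgi enzymes that put sialic acid on the ends of glycans, and the 9 such genes described here were St8sia1, St8sia4, St8sia6, St3gal1, St3gal2, St3gal3, St3gal4, St3gal6 and St6gal1, out of 18193 genes named on the array. They were followed through every probe set that the platform annotation assigns to 1 gene only, which gave 23 probe sets of the 34945 with a single gene. Total RNA of splenic regulatory T cells (Tregs, CD4+Foxp3+ T cells that restrain immune responses) was hybridised to Affymetrix mouse 3′ expression arrays, 1 array per genotype. The DNR array holds RNA from naive C57BL/6 mice aged 10 weeks carrying a dominant negative TGF-beta receptor II, a receptor chain that blocks the response to the cytokine TGF-beta, and the WT array holds RNA from wild-type C57BL/6 mice aged 10 weeks. Both came from cells sorted by flow cytometry. The protocol text of the WT sample also names DNR mice as the source, whereas its title, source name and genotype say wild type, and the genotype was followed. No source used here gives the promoter of the transgene or the number of mice behind each RNA. The comparison asks how gene expression of Tregs differs between the genotypes, and the 9 genes were selected on this family with the DNR over WT signal ratios of these same arrays already known, so their differences are given as descriptions.

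Each sialyltransferase uses CMP-sialic acid as donor and is specific for the acceptor and the linkage. The St3gal and St6gal enzymes attach sialic acid to galactose at different positions, and the St8sia enzymes attach it to another sialic acid, which makes disialic acid, disialogangliosides or polysialic acid chains. On T cells these caps set the ligands for Siglecs and selectins, mask galactose from galectins and lectins, and change with activation.

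With 1 array per genotype no test can be made, and a difference below is between these RNA samples only, without a replicate check. The signals are MAS5 intensities, a single linear value per probe set computed from its perfect-match and mismatch probes. A floor of 110.9, the higher of the arrays' medians, replaced every lower value before the log2 ratio of DNR over WT was taken. A gene is represented by its brightest probe set, a ratio with 1 array below the floor is a bound written as "at least", and a difference is called by size at 2-fold. Probe sets whose ID ends in _a_at, _s_at or _x_at may hybridise with more than 1 transcript and are called less specific. Signals of different probe sets are not compared, because each set hybridises with its own efficiency. Fewer cells of a type and less RNA per cell cannot be told apart in RNA of a sorted population.

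Both arrays had been scaled to the same trimmed mean, but their medians differed (DNR 110.9, WT 91.0). All 18 hybridisation spike-in probe sets had the higher signal on the DNR array (median 1.95-fold). All 8 Treg markers were above the floor on both arrays, with Foxp3 at 4550 on the DNR and 3754 on the WT array. Their summed signal was 120924 on the DNR and 97392 on the WT array. Of the 8, 3 were lower in the DNR sample, Il2ra, Cd4 and Cd3e. Of the 7 B cell markers with a probe set 4 were below the floor on both arrays, Cd79a, Blnk, Pax5 and Ebf1, and the summed signal was 1578 on the DNR and 1030 on the WT array. Of the 7, 2 were lower in the DNR sample, Ms4a1 (76.4 against 126) among them, and Cd22 alone read 444 and 162. Summed macrophage or monocyte markers went the other way, 3262 on the DNR and 4293 on the WT array, with 6 of 7 lower in the DNR sample and Cd14 below the floor on both. Neutrophil markers summed to 1216 and 371, with 3 of 6 below the floor on both arrays. Dendritic cell markers summed to 299 and 155, and none of the 4 passed the floor on both arrays. Of these, Flt3 and Xcr1 were below it on both and lower in the DNR sample. CD8 T or NK cell markers summed to 821 on the DNR and 635 on the WT array. Erythroid markers summed to 170 and 161, and platelet markers to 273 and 411. No erythroid marker passed the floor on both arrays, and 3 of 4 platelet markers were below it on both. All marker sums were taken from signals without the floor. The part of these cell types in the sialyltransferase differences was not tested.

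St8sia6, St8sia1 and St3gal4 had lower signals in DNR Tregs by more than 2-fold, whereas St8sia4 and St6gal1, bright in both samples, were within 1.5-fold. All 9 genes passed the floor on at least 1 array, 7 of them on both and 2, St3gal3 and St3gal6, on the DNR array alone. Of the 9, 3 were at least 2-fold lower on the DNR array, beside 2.93% of the 11927 genes measured, and 1 was at least 2-fold higher, beside 4%. In all 6 of the 9 were lower by any amount, beside 48.6% of genes, and the median log2 ratio was -0.35, beside 0.01 over all measured genes. The members were picked with these values in view, so nothing is read from these shares. The spread between probe sets of the same gene, the only error these arrays hold, had a robust SD of 0.39 on the log2 scale over 3968 genes; differences between mice, sorts or array runs are not in it.

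**Figure D1:**
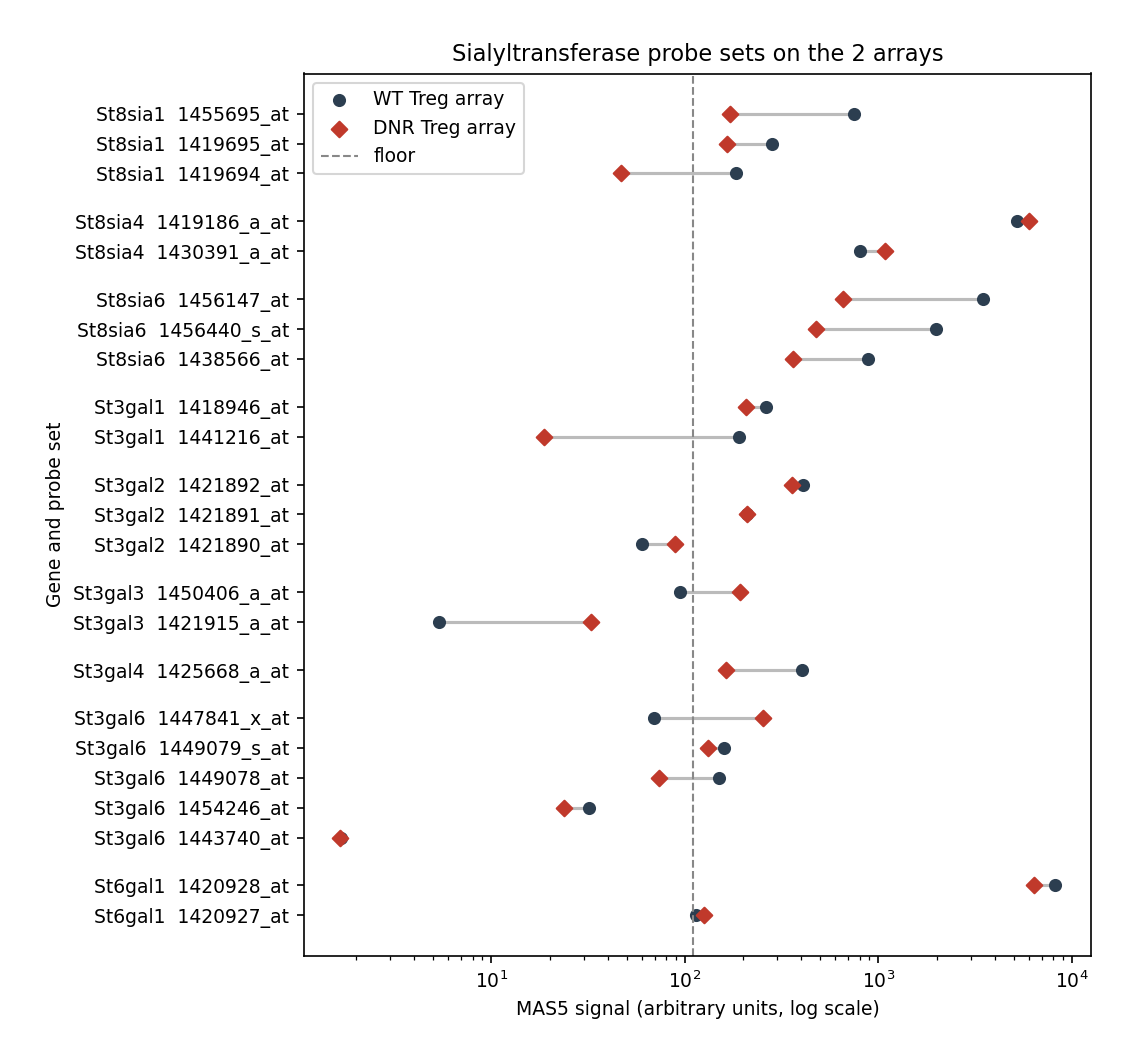
MAS5 signal (log axis) of the 23 sialyltransferase probe sets on the DNR array (diamonds) and the WT array (circles), with a grey line joining the values of a probe set and the floor of 110.9 dashed; there is 1 array per genotype and no error bar. All 3 probe sets of St8sia6 and all 3 of St8sia1 lie lower on the DNR array, while the 5 probe sets of St3gal6 do not go one way. For St8sia6 and for St8sia1, 2 of the 3 come from the same sequence entry.

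St8sia6, a sialyltransferase that adds sialic acid to sialylated O-glycans and so makes disialic acid ligands, had the largest difference among the members. Its brightest probe set, 1456147_at, read 660 (DNR) and 3459 (WT), a log2 ratio of -2.39 or 5.24-fold lower. Probe set 1456440_s_at read 477 on the DNR and 1979 on the WT array, 4.15-fold lower, and 1438566_at read 362 on the DNR and 886 on the WT array, 2.44-fold lower. All 3 were above the floor on both arrays and past 2-fold the same way, although the latter pair was designed from the same sequence entry and is not independent. Among the 9281 genes that passed the floor on both arrays, the log2 ratio of St8sia6 ranked 5 from the lowest. With these genes split by mean signal into 4 bins of near-equal size, it lies in bin 3, where 1.38% were at least 2-fold lower.

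St8sia1 encodes GD3 synthase, which adds the second sialic acid to the ganglioside GM3 and so opens the disialoganglioside branch. Probe set 1455695_at read 171 (DNR) and 751 (WT), a log2 ratio of -2.14 or 4.40-fold lower, which ranked 10 from the lowest of the 9281 genes. In its signal bin, number 2 of the 4, 3.71% were at least 2-fold lower. Both other probe sets were lower too. Probe set 1419695_at read 166 on the DNR and 281 on the WT array, 1.69-fold lower. For 1419694_at the values were 46.7, below the floor, and 184, which gives at least 1.66-fold lower. All 3 probe sets thus went the same way, although 1419695_at and 1419694_at were designed from the same sequence entry and are not independent. The size depends on which is used. The median over the 3 was at -0.76 or lower, since 1419694_at enters it at its bound. Without a floor the median of the 3 was -1.98. The DNR signals were all at or below 171, close to the floor.

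St8sia4, the polysialyltransferase of leukocytes, did not follow the other St8sia members. Probe set 1419186_a_at read 6000 on the DNR and 5217 on the WT array, and 1430391_a_at read 1082 on the DNR and 806 on the WT array. These are 1.15-fold and 1.34-fold higher in DNR Tregs, log2 ratios of 0.20 and 0.42 beside a probe-set SD of 0.39. Both probe sets are of the less specific kind.

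Among the enzymes that sialylate galactose, St3gal4, which caps N-acetyllactosamine chains and contributes to selectin ligands, was the one lower by more than 2-fold with its brightest probe set. Its single probe set, 1425668_a_at, read 164 (DNR) and 404 (WT), a log2 ratio of -1.30 or 2.46-fold lower, and no second probe set was there to set beside it. The DNR signal is close to the floor. The probe set is less specific, and the gene lies in signal bin 1, the dimmest, where 5.3% of genes were at least 2-fold lower. St3gal1, which sialylates the core 1 disaccharide of O-glycans, read 207 on the DNR and 264 on the WT array with 1418946_at, 1.28-fold lower. Its second probe set, 1441216_at, read 18.7 on the DNR and 190 on the WT array and is at least 1.71-fold lower. Both were lower, and the size for the second is not set because its DNR value is below the floor. St3gal2, which uses core 1 and ganglioside acceptors, read 359 on the DNR and 407 on the WT array with 1421892_at, 1.14-fold lower. With 1421891_at St3gal2 read 209 and 210, a log2 ratio of -0.01, and its other probe set was below the floor on both arrays (89.4 and 60.3). The 3 probe sets of St3gal2 come from the same sequence entry.

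St3gal3 and St3gal6, which also act on N-acetyllactosamine, were near the floor. With 1450406_a_at St3gal3 read 194 in DNR Tregs and 94.0, below the floor, in WT Tregs, at least 1.75-fold higher, and its other probe set was below the floor on both (32.9 and 5.39). St3gal6 counted as at least 2.29-fold higher by its brightest probe set, 1447841_x_at, with 254 on the DNR and 69.6 on the WT array. The other probe sets of St3gal6 above the floor went the opposite way: 1449079_s_at read 132 on the DNR and 159 on the WT array, 1.21-fold lower. For 1449078_at the values were 73.6 and 151, at least 1.36-fold lower. Both 1449079_s_at and 1449078_at come from the same sequence entry and are not independent. The remaining 2 were below the floor on both arrays, 1454246_at at 23.6 and 31.9 and 1443740_at at 1.64 and 1.68. The median over the measured St3gal6 probe sets was -0.27, and -0.44 was obtained with the less specific probe sets left out, so these arrays give no settled direction for St3gal6.

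St6gal1 makes the sialylated N-glycan end that the B cell lectin CD22 binds. Its probe set 1420928_at read 6380 on the DNR and 8234 on the WT array, a log2 ratio of -0.37 or 1.29-fold lower, less than the probe-set SD of 0.39. Probe set 1420927_at, from the same sequence entry, was just above the floor at 126 on the DNR and 114 on the WT array, 1.10-fold higher. The 2 probe sets of St6gal1 thus differed in direction. St6gal1 is strongly expressed by B cells, whose markers are given above, and their part in its signal was not tested.

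**Figure D2:**
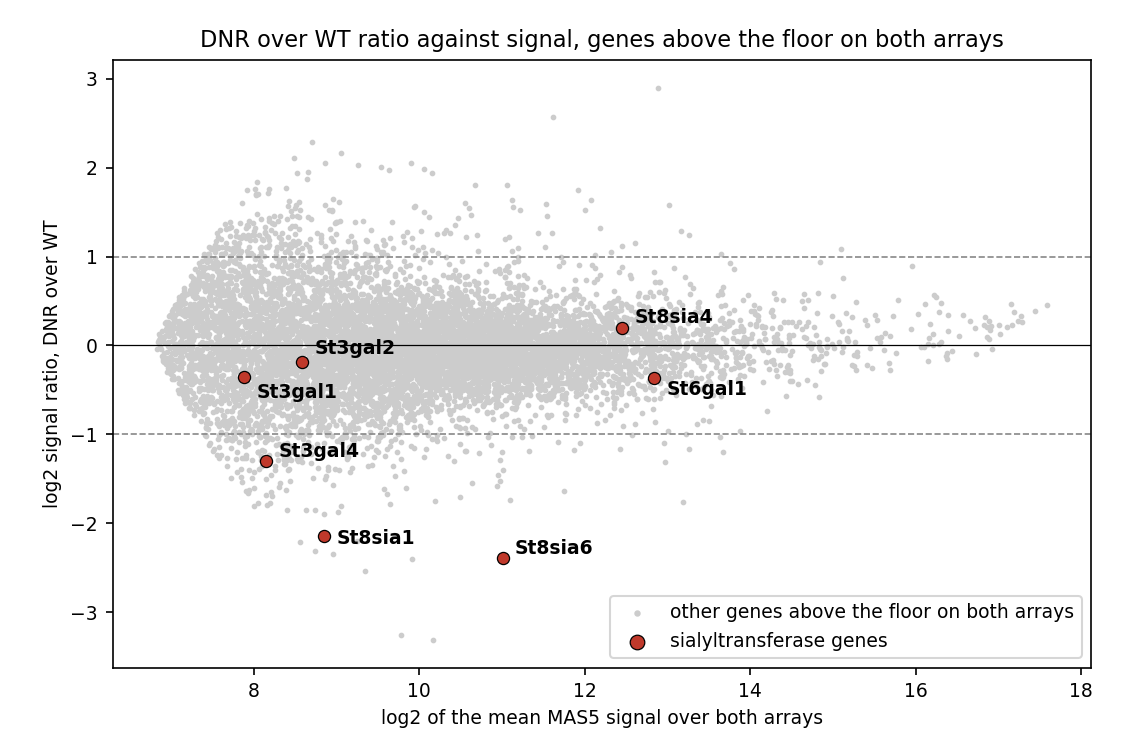
Log2 signal ratio of DNR over WT against the log2 of the mean signal for the 9281 genes that passed the floor on both arrays (grey), with the 7 sialyltransferase genes among them in red and the 2-fold lines dashed. St8sia6 (-2.39) and St8sia1 (-2.14) lie at the lower edge of the cloud, St3gal4 (-1.30) lies among the dim genes, where ratios scatter more, and the other 4 lie within the 2-fold lines.

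Across the 19 probe sets above the floor on at least 1 array, 5 were at least 2-fold lower, beside 3.3% of 20764 single-gene probe sets measured. These 5 were the 3 of St8sia6, the brightest of St8sia1 and that of St3gal4. In order of the log2 ratio of their brightest probe set, the 7 genes that passed the floor on both arrays ran from St8sia6 and St8sia1 through St3gal4 to St6gal1, St3gal1 and St3gal2, then St8sia4. St3gal3 and St3gal6 are bounds and have no place in this order. The first 2 are 0.25 apart, less than the probe-set SD, and St6gal1, St3gal1 and St3gal2 span 0.18, also less than it. The genes with the nearest log2 ratio to St8sia6 over these 2 arrays were Gsta4 (-2.40), Golm2 (-2.35) and Shc1 (-2.31), those nearest to St8sia1 were Ctsw (-2.12), Cd24a (-2.19) and Smurf1 (-2.21), and those nearest to St3gal4 were Zfp654, Slfn1 and Dnajc27, each at -1.30. A scaling on the spike-ins moved the median of all measured genes to -0.90. Relative to that shift St8sia6 was at -2.45, St8sia1 at -2.15, St3gal4 at -1.26 and St8sia4 at 0.14, although St8sia4 was at -0.76 before the shift was taken off.

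Windows upstream of RefSeq start sites are shown because TGF-beta acts on genes through SMAD factors. They are those of the 3 members at least 2-fold lower by their brightest probe set. St8sia4 is added as the St8sia member that was not lower. Windows were matched for 7 of the 9 members; St3gal1 and St3gal2 were not matched. Each line gives the 250 bases before the start site, 5′ to 3′ on the strand of the gene, in GRCm38.p6, and capitals mark CAGAC, the core of the SMAD-binding CAGA box, on either strand (GTCTG on the other). The positions are chr6:142964453-142964702 on the minus strand for St8sia1, chr2:13793521-13793770 on the minus strand for St8sia6, chr9:35116865-35117114 on the minus strand for St3gal4 and chr1:95667595-95667844 on the minus strand for St8sia4.
St8sia1: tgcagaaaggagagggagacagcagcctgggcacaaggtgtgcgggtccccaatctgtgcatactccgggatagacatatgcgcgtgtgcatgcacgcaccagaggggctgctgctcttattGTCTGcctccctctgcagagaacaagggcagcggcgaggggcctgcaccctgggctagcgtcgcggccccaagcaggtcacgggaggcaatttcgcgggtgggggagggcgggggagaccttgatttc
St8sia6: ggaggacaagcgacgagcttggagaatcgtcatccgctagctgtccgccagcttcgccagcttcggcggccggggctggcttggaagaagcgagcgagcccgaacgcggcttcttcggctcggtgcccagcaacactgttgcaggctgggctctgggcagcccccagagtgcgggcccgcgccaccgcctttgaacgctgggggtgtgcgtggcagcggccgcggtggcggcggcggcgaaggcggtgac
St3gal4: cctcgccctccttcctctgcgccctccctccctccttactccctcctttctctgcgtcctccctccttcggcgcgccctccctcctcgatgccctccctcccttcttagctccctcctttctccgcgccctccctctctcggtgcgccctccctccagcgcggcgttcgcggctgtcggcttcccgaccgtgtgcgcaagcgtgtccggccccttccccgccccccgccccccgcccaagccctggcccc
St8sia4: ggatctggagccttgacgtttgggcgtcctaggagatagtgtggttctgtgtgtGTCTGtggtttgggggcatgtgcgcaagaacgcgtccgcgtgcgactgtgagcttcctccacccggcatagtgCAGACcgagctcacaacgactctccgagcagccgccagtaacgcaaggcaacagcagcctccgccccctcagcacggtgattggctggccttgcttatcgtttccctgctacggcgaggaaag
CAGAC was found 1 time in the St8sia1 window, starting at position -128 from the start site, and 2 times in the St8sia4 window, at -196 and -123. It was not in the windows of St8sia6 and St3gal4. The motif is common: 42.2% of the 32851 upstream windows of this length hold it. The palindromic SMAD element GTCTAGAC, which does not contain CAGAC on either strand, was in 0 of the 10 windows of members and in 0.167% of all. A match is a run of letters and not a bound site.

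Of the 5 other sialyltransferase genes measured 0 were at least 2-fold lower, beside 2.93% of all measured genes. Of 11 in all, 6 were below the floor on both arrays (St6gal2, St6galnac2, St6galnac5, St8sia2, St8sia3 and St8sia5), so no ratio is given for them. Of the 5, 4 were higher in DNR Tregs, 1 past 2-fold, beside 4% of all measured genes, with a median log2 ratio of 0.41. The members were picked with the ratios in view, so nothing is read from a contrast with these 5. St6galnac6, which sialylates N-acetylgalactosamine of gangliosides and other glycans, was 2.28-fold higher (385 on the DNR and 169 on the WT array). St6galnac4 was 1.54-fold higher (713 against 464) with a second probe set at 0.44, and St6galnac3 was 1.78-fold lower with its brightest probe set but at 0.40 with its other one. St3gal5, GM3 synthase, which makes the substrate of St8sia1, was above the floor on the DNR array alone (148 against 92.9), at least 1.33-fold higher.

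All 6 genes for the synthesis and transport of activated sialic acid were above the floor on both arrays, with a median of -0.10. By their brightest probe sets 0 of the 6 passed 2-fold, beside 2.93% lower and 4% higher among all measured genes. With so few genes nothing is read from this count. Nans, which makes sialic acid 9-phosphate, read 2042 on the DNR and 1727 on the WT array, and Cmas, which activates sialic acid to CMP-sialic acid, read 2430 and 2816. Cmah, which converts the N-acetyl to the N-glycolyl form in mice, was 1.54-fold lower by its brightest probe set, while its other 4 ranged from -0.12 to 1.07. Among genes of sialic acid removal and turnover, 6 of 8 on the array were measured, 5 of them higher on the DNR array, with a median of 0.42. By their ratios 0 passed 2-fold, beside the same shares, but 2 of the ratios are bounds. Siae was at least 1.94-fold higher on a less specific probe set (215 against 19.6), with a second probe set at 0.18. Neu3 was at least 1.45-fold higher (161 against 82.7). The brightest genes of this list were Casd1, which O-acetylates sialic acid (2290 on the DNR and 2368 on the WT array), and Ctsa, the protective protein of the lysosomal sialidase (2188 against 1780, with a second probe set at -1.16).

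Of 9 measured genes of ganglioside synthesis and breakdown 6 were lower in DNR Tregs, beside 48.6% of all measured genes, and 1 was past 2-fold, beside 2.93%. The median was -0.38, and -0.11 with the less specific probe sets left out. The 6 hold 3 genes of synthesis, Ugcg, B4galnt1 and B4galt5, and 3 of lysosomal breakdown, Hexa, Glb1 and Psap, while St3gal5, the step before GD3 synthase, was higher as given above. Ugcg, which makes glucosylceramide, the first step of the pathway, was 2.27-fold lower (1574 on the DNR and 3567 on the WT array), with 3 other probe sets between -0.57 and -0.18. B4galnt1, which extends GM3 and GD3 to GM2 and GD2, was 1.98-fold lower (1246 against 2467), but its second probe set was at 0.01. B4galt5, a lactosylceramide synthase, was 1.68-fold lower and Hexa, which degrades GM2, 1.44-fold lower, each on a probe set of the less specific kind. B3galt4, which makes GM1, was at least 1.77-fold higher (197 against 91.2).

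**Figure D3:**
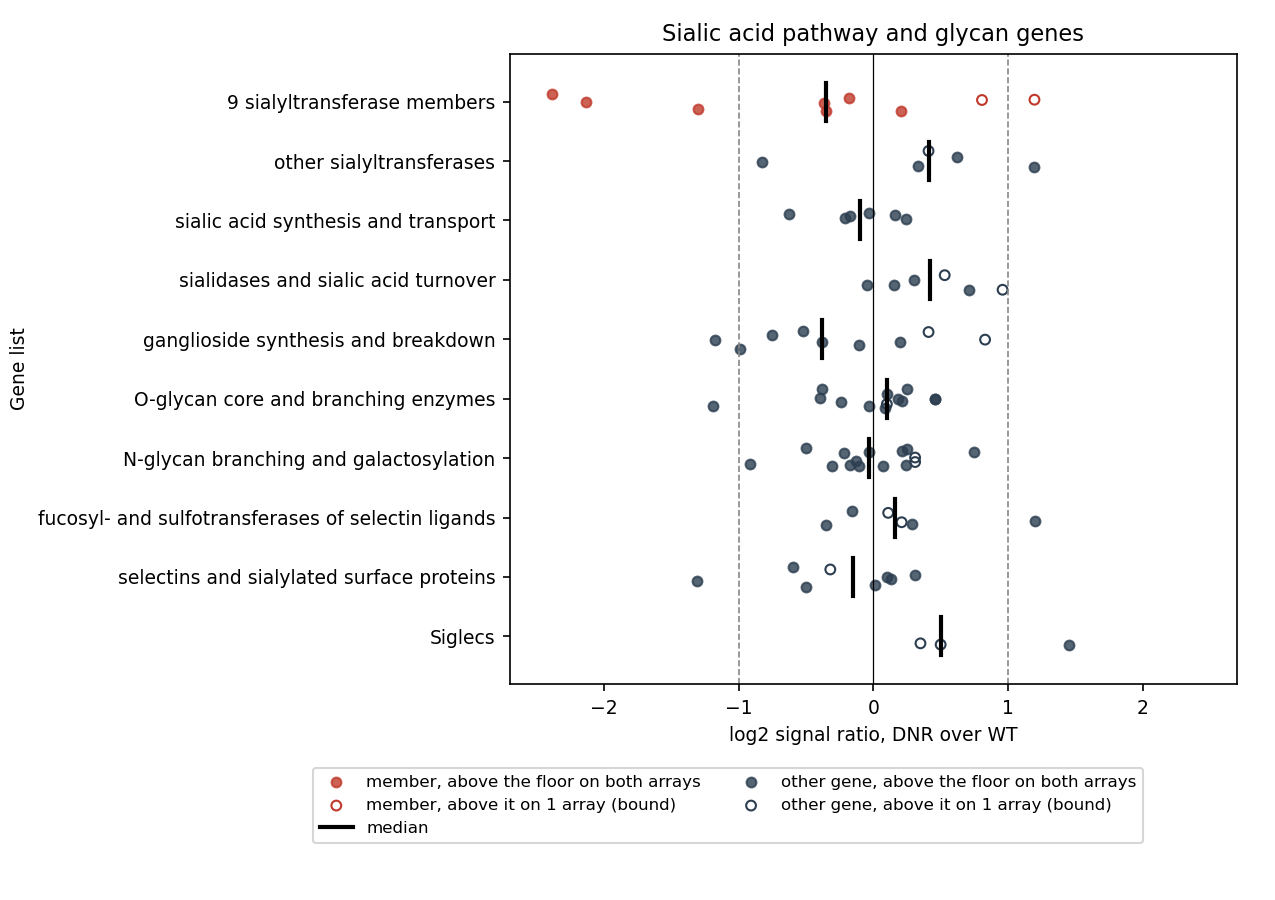
Log2 signal ratio of DNR over WT for each measured gene (points; open where 1 array is below the floor, so that the ratio is a bound) in 10 lists, with the list median as a black bar, vertical jitter for legibility and the 2-fold lines dashed. The members hold the only points below -2, and the medians of the other lists run from -0.38 (ganglioside genes) to 0.50 (Siglecs). The members were picked with these ratios in view, so nothing is read from this contrast.

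For genes of the glycans that carry sialic acid, the shares of all measured genes are again 2.93% lower and 4% higher at 2-fold. With so few genes per list nothing is read from the counts. Of 13 measured genes of O-glycan synthesis 1 was at least 2-fold lower and 0 higher (median 0.10). It was Galnt10, which starts mucin-type O-glycans, at 441 on the DNR and 1007 on the WT array, 2.28-fold lower, and its second probe set was at -0.50. Galnt4 (-0.40) and Galnt6 (-0.38) were within 2-fold by their brightest probe sets. Another probe set of each was past it, at -1.43 for Galnt4 and -1.21 for Galnt6. C1galt1, which makes the core 1 acceptor of St3gal1, was nearly equal (1054 against 1078). Of 15 measured genes of N-glycan branching 0 passed 2-fold by their ratios, 2 of which are bounds (median -0.03). Man1a read 4258 and 4353, and B3gnt2, which builds lactosamine chains, was 1.41-fold lower (5104 against 7200). Of 6 measured fucosyl- and sulfotransferases of selectin ligands 1 was at least 2-fold higher (median 0.16), Tpst1, which sulfates tyrosines of PSGL-1, 2.3-fold higher on a less specific probe set (571 against 249).

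Of 8 measured selectins and sialylated surface proteins 1 was at least 2-fold lower and 0 higher (median -0.15). It was Ccr7, a lymph node homing receptor that St8sia4 can polysialylate in dendritic cells, at 4627 on the DNR and 11433 on the WT array. The carriers of O-linked sialic acid Selplg (PSGL-1, 8412 against 7872) and Spn (CD43, 4092 against 4051) were nearly equal by their brightest probe sets, and the second one of Spn was at 0.54. Of 8 Siglec genes, whose products bind sialic acid, 5 were below the floor on both arrays, and 3 were higher in DNR Tregs, 2 of them as bounds near the floor (median 0.50). Cd22 was 2.74-fold higher (444 on the DNR and 162 on the WT array), beside the other B cell markers above the floor on at least 1 array, Cd79b at 869 and 666 and Ms4a1 at 76.4 (below the floor) and 126. Over all these lists, with each gene counted once and members left out, 3 of 70 measured genes were at least 2-fold lower and 3 at least 2-fold higher, beside the same 2.93% and 4% of all measured genes.

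**Figure D4:**
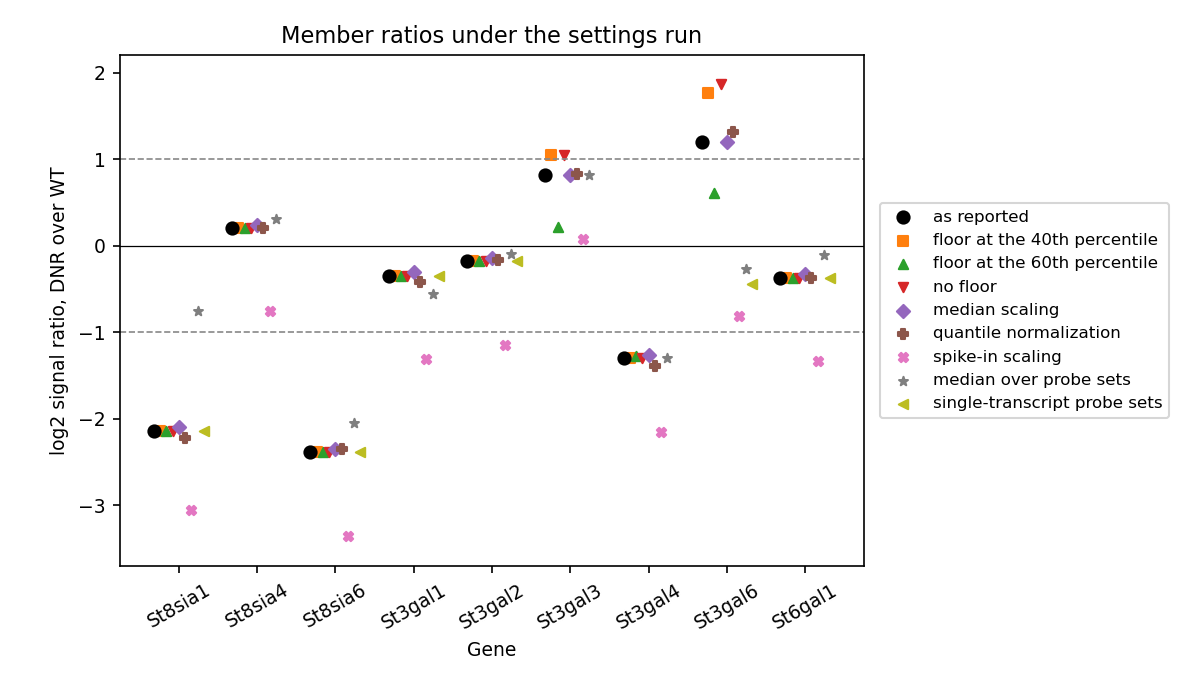
Log2 signal ratio of DNR over WT of the 9 members as reported (black) and under 8 other settings (colours and shapes). A symbol is missing for St8sia4, St3gal3 and St3gal4 where only probe sets for a single transcript are used, since they have none. St8sia6 stays below -2 under all 9, St8sia1 is above -1 with the median over its probe sets, 1 of them at its bound, St3gal4 has no value where only probe sets for a single transcript are used, and St3gal6 lies on both sides of 0.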

How the data were processed

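The deposited values are linear signal intensities, 1 for each probe set, which the authors computed with MAS5 (tool named in the submitters' processing notes; no source used here gives the version, target value or detection calls). Trimmed of 2% at each end, the mean was 500.0 on both. Such scaling also multiplies the background. Of 45101 probe sets 64 controls were set aside, and 34945 had exactly 1 gene in the platform annotation. No genome build is named for the arrays, so gene coordinates are not given; promoter windows are RefSeq's on GRCm38.p6.

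Values were computed in Python 3.11.15 (pandas 2.3.3, numpy 2.4.6). The ratio calculation was checked on a simulated array with known changes in genes well above the floor. That check did not cover changes near 2-fold or changed genes near the floor. With 1 array per genotype there is no test, and precision is limited by the number of arrays. The named genes are all members, up to 4 genes per list with the largest change of at least 2-fold (otherwise the 2 brightest), and the 3 nearest in ratio; others in the text were named after their values were seen. Members and lists were chosen with earlier results of these data known. Alternatives were 3 floors, 3 scalings, 2 probe-set rules and folds of 1.5 and 3.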

Additional observations from a re-analysis of the deposited data

How the results depend on the processing

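St8sia6 was at least 2-fold lower under all 8 other settings run for it (log2 ratios from -3.35 to -2.05) and St3gal4 under all 7 that gave it a value (from -2.15 to -1.26), since St3gal4 has no probe set specific to a single transcript. St8sia1 was past 2-fold in 7 of 8, with -0.76 by the median over its probe sets, of which 1 enters at its bound; with no floor that median was -1.98. Spike-in scaling, which moved all measured genes to a median of -0.90, gave -3.35 for St8sia6, -3.05 for St8sia1 and -2.15 for St3gal4. The member median was -1.31. At least 2-fold lower were 6 members and 26 pathway list genes, and 0 of either were higher. That scaling put 40.9% of all measured genes at least 2-fold lower and 0.221% higher, so nothing is read from these counts. St3gal6 turned to -0.81 with spike-in scaling, to -0.27 by the median over probe sets and to -0.44 with transcript-specific probe sets alone, where another probe set or their median stands for it. The count of members at least 2-fold higher, 1 as reported, was 2 for a floor set at the 40th percentile and for no floor, and 0 for a floor at the 60th, by the median over probe sets and with transcript-specific probe sets alone; at 1.5-fold it was 2 and at 3-fold 0. Pathway list genes numbered 9 lower and 8 higher at 1.5-fold, 0 and 0 at 3-fold, and 9 and 20 with no floor. At the 40th percentile floor 5 were higher, and by the median over probe sets 1 was lower. Of all measured genes, 14.6% were at least 2-fold lower and 19.9% higher with no floor. At least 2-fold higher were 7.3% for the 40th percentile floor and 2.52% for the 60th. The median over probe sets put 2.23% lower and 3.1% higher, and transcript-specific probe sets put 3.84% higher. Members lower numbered 3 at 1.5-fold and 2 at 3-fold. Shares of all measured genes at 1.5-fold and 3-fold were not computed, so nothing is read from the counts at these folds. No paired analysis was possible because each genotype has 1 array. Signals near the floor of 110.9 limit St3gal3, St3gal6 and the DNR values of St8sia1 and St3gal4.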
